A study of Saccharomyces cerevisiae with 134 samples.

Results

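RNA of budding yeast was compared between cells moved into darkness for 60 min and the same kind of cells still in blue light at 0 min, with 3 libraries at each time. These 6 libraries were chosen by their labels, out of 134 samples in the whole study, and every gene of the deposited table entered the comparison (6692 genes). All 6 libraries come from a set2Δ strain of the BY4741 background that carries LANS-Set2, in which the methyltransferase Set2 is joined to a shuttle that blue light sends into the nucleus, grown in synthetic medium without leucine. The 60 min dark group had been raised in blue light throughout and then shifted to darkness. The 0 min group was the initial collection of those light-grown cultures. Nothing in the labels ties replicates to cultures of their own, so p-values here reflect only the scatter among libraries, which may be technical. The 30 and 90 min libraries of the same course also set that scatter, since all 12 were fitted together.

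Set2 places methyl groups on lysine 36 of histone H3 behind elongating RNA polymerase II, and the trimethylated form, H3K36me3, recruits a deacetylase complex that keeps transcribed chromatin closed to internal initiation. In the LANS design, blue light uncovers a nuclear import signal, and in darkness the fusion returns to the cytoplasm. Darkness therefore removes the enzyme from the nucleus, and the mark declines by demethylation and dilution.

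Between 60 min of darkness and 0 min, few genes passed the test in a fit without replicate number. Of 5884 genes with a mean of at least 1 TPM (a transcript's share of the library, scaled for length and depth) over the course, 16 rose (0.272%) and 2 fell (0.034%) by limma at an adjusted p under 0.05. The genes that rose were DAN1, YHB1, PBI1, YMR317W, YGR174W-A, the biotin genes BIO2, BIO3 and VHT1, the sterol pathway genes ERG25, ERG26 and CYB5, the stress genes DDR2, TKL2 and YRO2, GPP2 and CTR1. The genes that fell were the chaperone genes SSA2 and CPR6. Among the rises the log2 change ran from 0.45 for ERG25 to 2.35 for YGR174W-A, while the median over all genes tested was 0.04. At an unadjusted p under 0.05 there were 324 higher and 93 lower genes, and the 3 libraries of each time did not overlap at 459 higher (7.8%) and 212 lower genes (3.6%). In bulk RNA, a change in the share of cells that express a gene and a change in RNA per cell cannot be told apart, and TPM values are relative to the rest of the library.

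The number of calls depended on the fit. On reads recovered from TPM, edgeR called 40 higher (0.688%) and 2 lower genes (0.0344%) and DESeq2 called 91 higher and 27 lower genes. A fit of the 6 libraries alone called 2 genes, DAN1 and YHB1, both higher. With replicate number as a second factor (the replicate block), limma called 155 genes, all 18 among them. The labels do not tie these numbers to cultures. Leaving out 1 library gave 19, 5 and 5 calls without 60 min replicates 1, 2 and 3, and 12, 7 and 11 calls without 0 min replicates 1, 2 and 3. DAN1 and YHB1 passed the threshold under each of 15 other fits, PBI1, DDR2 and BIO2 under 14, and VHT1 under 12. GPP2 passed under 10, ERG25 and TKL2 under 9, and BIO3, YRO2, CYB5 and ERG26 under 8. CTR1 and YGR174W-A passed under 7, and YMR317W, SSA2 and CPR6 under 6.

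**Figure D1:**
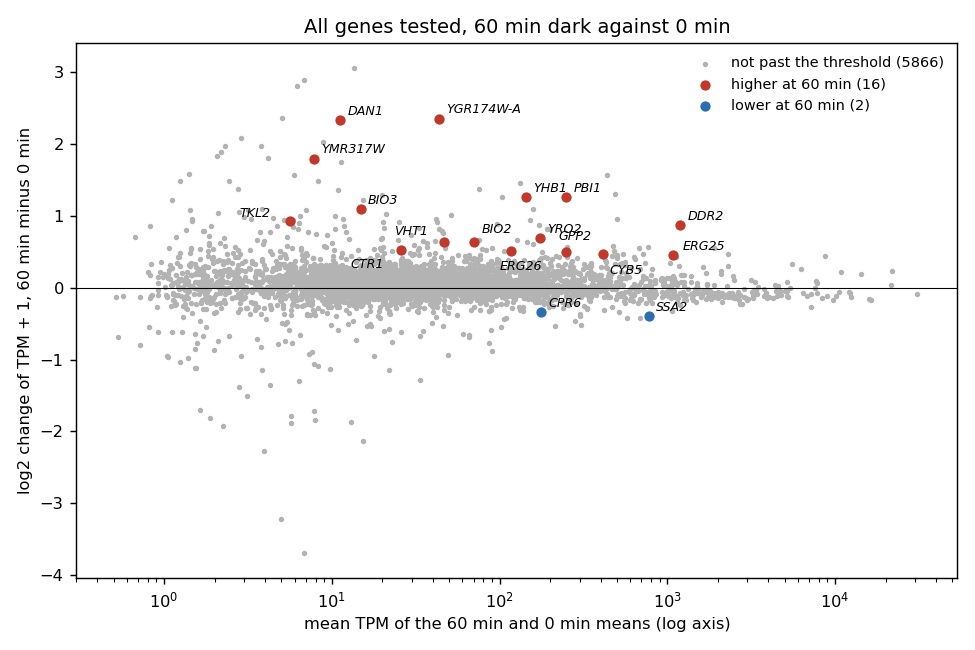
Each point is 1 of 5884 genes, with the mean TPM of both times on a log axis and the log2 change of TPM + 1, 60 min dark minus 0 min, on the other axis. The 16 red points rose and the 2 blue points fell by limma, and several grey points with few TPM lie farther from 0 without passing the threshold.

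**Figure D2:**
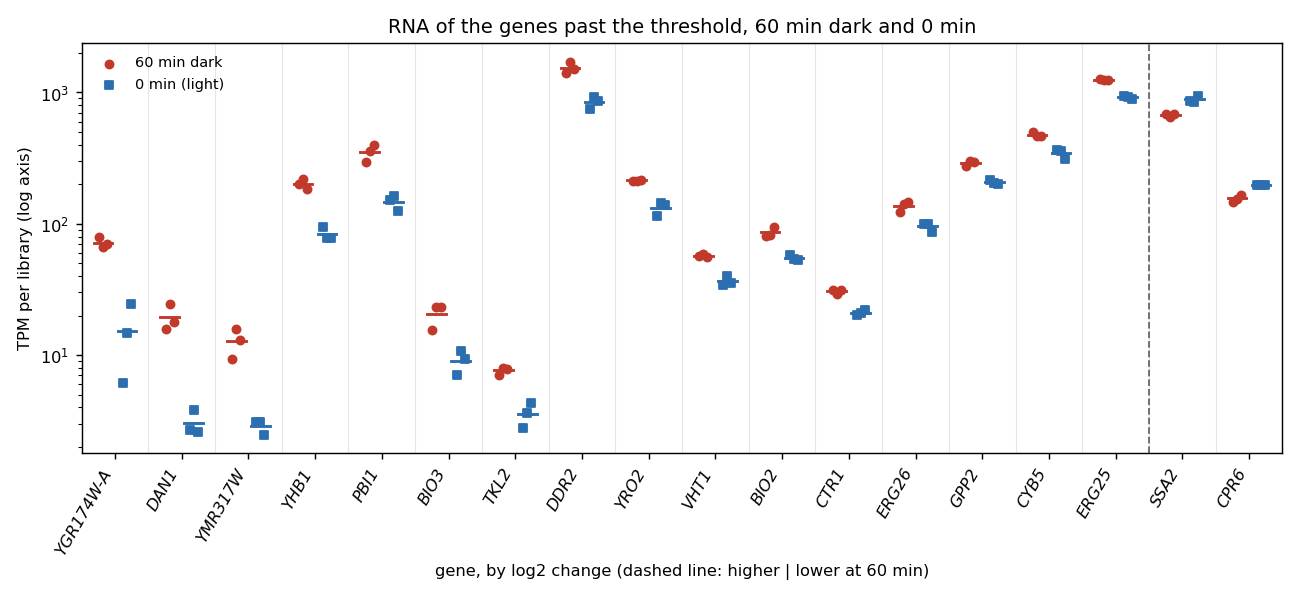
TPM of each library on a log axis for the 18 genes past the threshold, with 60 min dark (circles) left of 0 min (squares) and a bar at each mean of 3 libraries. In all 18 genes the 3 libraries of 60 min lie on one side of the 3 libraries of 0 min.

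The libraries held 10551857 to 27652694 recovered reads, and 60 min replicate 1 was the shallowest. The a-cell genes MFA1, MFA2, STE2, STE6 and AGA2 all had at least 47.7 TPM in each library. By contrast, the alpha pheromone gene MF(ALPHA)1 had 0.419 to 0.501 TPM at 60 min and 0.208 to 0.311 TPM at 0 min. Other alpha-cell genes were higher. MF(ALPHA)2 had 0.569 to 0.729 TPM at 60 min and 0.681 to 2.27 TPM at 0 min. STE3 had 2.95 to 3.53 TPM at 60 min and 2.58 to 3.15 TPM at 0 min. SAG1 had 10.1 to 11.8 TPM at 60 min and 9.85 to 10.5 TPM at 0 min. MET17 and URA3, which BY4741 lacks, were listed at 0 in all 6 libraries. HIS3 and LEU2, also auxotrophic loci of that strain, had 99.0 to 123 TPM and 204 to 272 TPM at 60 min, and 103 to 120.4 TPM and 195 to 304 TPM at 0 min. LEU2 is the marker the medium selects for.

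SET2 (YJL168C, chromosome X, 102227 to 104428, minus strand, R64 genome) had 89.2, 126 and 153 TPM at 60 min and 78.8, 136 and 170.0 TPM at 0 min. Replicate 1 was lowest and replicate 3 highest at both times, and the groups overlapped. Its log2 change was -0.03 ± 0.33 (SE, limma adjusted p = 1.00), and since reads of the fusion and of the gene itself are not separated, these values do not check the deletion. RPH1 (YER169W), which encodes a demethylase of H3K36me3, had 20.9, 22.6 and 21.6 TPM at 60 min and 18.2, 18.6 and 17.5 TPM at 0 min. Its libraries did not overlap, and its log2 change of 0.25 ± 0.10 did not pass the threshold (limma adjusted p = 0.658).

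Cell wall mannoprotein genes of the DAN and TIR family, known for high expression in the absence of oxygen, had the highest list median. DAN1 (YJR150C, X, 708811 to 709707, minus strand), an anaerobic mannoprotein gene, had 15.8, 24.5 and 17.7 TPM at 60 min and 2.67, 3.82 and 2.60 TPM at 0 min. Each 60 min library lay far above the highest 0 min library. The mean TPM of DAN1 was 6.39-fold higher at 60 min (log2 change 2.33 ± 0.24, limma adjusted p = 0.00485). It was the 1 of 7 family members tested that passed the threshold, against 0.306% of all genes tested, and no member fell. The list median was 0.92, against 0.04 over all genes, and ran from 0.62 to 1.08 over 23 alternatives.

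The other mannoprotein genes did not pass the threshold. TIR1, a cold shock and anaerobic cell wall gene, had 163, 226 and 214 TPM at 60 min and 93.3, 108 and 107 TPM at 0 min (log2 change 0.95 ± 0.20, limma adjusted p = 0.102, edgeR adjusted p = 0.0078). TIR3 had 26.1, 38.1 and 35.8 TPM at 60 min and 16.0, 16.9 and 17.9 TPM at 0 min (0.92 ± 0.24, limma adjusted p = 0.197, edgeR adjusted p = 0.0348). In both genes the groups did not overlap, and 60 min replicate 1 was the lowest of its group. DAN4, next to DAN1 on chromosome X, averaged 7.15 ± 2.33 TPM at 60 min and 3.16 ± 0.646 TPM at 0 min (SD, n = 3 each). TIR4 had about the same mean at both times, 2.12 ± 0.652 TPM at 60 min and 2.08 ± 0.432 TPM at 0 min. Of 22 seripauperin genes, small relatives of these proteins, 4 passed the filter on low values and 0 were called by limma or edgeR, with 0.84 for PAU5 and 1.00 for PAU2 as log2 changes. Seripauperin copies are near-identical, so their values are uncertain.

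YHB1 (YGR234W, VII, 959904 to 961103, plus strand) encodes a flavohemoglobin that detoxifies nitric oxide and is regulated by oxygen. It had 201, 218 and 185 TPM at 60 min and 95.0, 78.3 and 78.5 TPM at 0 min, with no overlap. YHB1 was 2.40-fold higher at 60 min (log2 change 1.26 ± 0.12, limma adjusted p = 0.00414), the smallest adjusted p of the comparison. Of 22 oxygen-regulated genes tested it was the 1 that passed, against 0.306% of all genes tested, and 0 fell. Within that list YSR3, a dihydrosphingosine phosphate phosphatase gene, had 34.97, 43.7 and 50.1 TPM at 60 min and 25.3, 22.3 and 22.9 TPM at 0 min (0.83 ± 0.16, limma adjusted p = 0.0741, edgeR adjusted p = 0.0078). Other members had small or negative log2 changes, among them the hypoxic repressor gene ROX1 at 0.05, the fatty acid desaturase gene OLE1 at -0.06 and the hypoxic gene ANB1 at -0.37, and the list median was 0.05.

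Genes of sterol synthesis, the pathway to ergosterol, mostly had small positive changes. Of 26 members tested, 3 rose and 0 fell by limma, against 0.272% and 0.034% of all genes. A positive log2 change was found in 25, against 3685 of all 5884 genes, and 18 were higher without overlap, against 7.8% of all genes. The list median was 0.39 and lay between 0.31 and 0.45 over 23 alternatives. The same count by edgeR was 5 higher and 0 lower, against 0.688% and 0.0344% of all genes.

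Those that passed were ERG25, ERG26 and CYB5. ERG25 (YGR060W, VII, 610564 to 611493, plus strand), the C-4 methyl sterol oxidase, had 1255, 1247 and 1255 TPM at 60 min and 934, 928 and 885 TPM at 0 min (log2 change 0.45 ± 0.06, limma adjusted p = 0.0196). ERG26 (YGL001C, VII, 495453 to 496502, minus strand), the C-3 sterol dehydrogenase that acts after it, had 123, 141 and 147 TPM at 60 min and 100.03, 99.4 and 87.3 TPM at 0 min (0.52 ± 0.09, limma adjusted p = 0.0477). CYB5 (YNL111C, XIV, 416940 to 417302, minus strand), the cytochrome b5 that passes electrons to sterol and lipid enzymes, had 497, 469.6 and 465 TPM at 60 min and 363, 360.3 and 314 TPM at 0 min (0.47 ± 0.07, limma adjusted p = 0.0204, edgeR adjusted p = 0.17). In each of these 3 genes the libraries of 60 min were all above those of 0 min, and those of ERG26 were spread more widely at 60 min than at 0 min.

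Other enzymes of the pathway had changes of like size that did not pass. ERG2, the sterol isomerase gene, averaged 630.1 ± 38.6 TPM at 60 min and 457 ± 37.8 TPM at 0 min (log2 change 0.46 ± 0.10, limma adjusted p = 0.102, edgeR adjusted p = 0.00788). ERG1, squalene epoxidase, averaged 567 ± 125 TPM at 60 min and 391 ± 26.5 TPM at 0 min. ERG6, a sterol methyltransferase, had 0.58 ± 0.19, and ERG11, the lanosterol demethylase, 0.39 ± 0.12, both as log2 changes (limma adjusted p = 0.414 and 0.353). Both were lowest in replicate 1 within the 60 min group. HMG2, the minor HMG-CoA reductase gene, was the member with a negative change, -0.12 ± 0.09. Of 12 genes of sterol regulation and uptake, 0 passed by limma or edgeR and the median was 0.02, which was negative under 10 of 23 alternatives.

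Biotin genes formed another group with several rises. Of 8 members tested, 3 rose and 0 fell, against 0.272% and 0.034% of all genes tested. Without overlap, 5 were higher and 1 lower, against 7.8% and 3.6% of all genes. The list median was 0.54, between 0.40 and 0.63 over 23 alternatives, against 0.04 over all genes. BIO2 (YGR286C, VII, 1063813 to 1064940, minus strand), biotin synthase, had 81.4, 82.0 and 94.2 TPM at 60 min and 57.4, 53.9 and 53.0 TPM at 0 min (log2 change 0.64 ± 0.08, limma adjusted p = 0.0068). VHT1 (YGR065C, VII, 618077 to 619858, minus strand), the biotin importer of the plasma membrane, had 56.6, 59.0 and 55.6 TPM at 60 min and 33.9, 39.9 and 35.3 TPM at 0 min (0.64 ± 0.08, limma adjusted p = 0.0114). Both were 1.57-fold higher at 60 min.

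BIO3, BIO4 and BIO5 lie side by side on chromosome XIV and serve earlier steps of biotin synthesis and the uptake of precursors. BIO3 (YNR058W, 734291 to 735733, plus strand) had 15.6, 23.1 and 23.1 TPM at 60 min and 7.10, 10.8 and 9.37 TPM at 0 min, 2.27-fold higher at 60 min (log2 change 1.10 ± 0.18, limma adjusted p = 0.0447). With no overlap, BIO5 had 4.54, 7.43 and 7.31 TPM at 60 min and 2.82, 3.05 and 3.24 TPM at 0 min (0.85 ± 0.17, limma adjusted p = 0.0794, edgeR adjusted p = 0.00532). BIO4 overlapped between the groups, with 8.67, 12.8 and 13.2 TPM at 60 min and 4.22, 10.6 and 11.6 TPM at 0 min. VHR1, the activator of VHT1 and BIO5, had a log2 change of 0.11, and BPL1, the enzyme that attaches biotin to proteins, -0.09.

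Of 46 genes of the general stress response, the set induced through the activators Msn2 and Msn4, 2 rose and 0 fell. Over all genes tested, 0.272% rose and 0.034% fell. The list median was 0.28 (0.17 to 0.48 over 23 alternatives), against 0.04 over all genes. DDR2 (YOL052C-A, XV, 231570 to 231755, minus strand), a small multistress gene, had 1414, 1705 and 1506 TPM at 60 min and 749, 921 and 863 TPM at 0 min (log2 change 0.87 ± 0.10, limma adjusted p = 0.0068). TKL2 (YBR117C, II, 474392 to 476437, minus strand), the minor transketolase, had 7.10, 7.98 and 7.85 TPM at 60 min and 2.79, 3.60 and 4.35 TPM at 0 min (0.93 ± 0.14, limma adjusted p = 0.034). In both genes all 60 min libraries lay above all 0 min libraries. HSP12, a membrane-stabilising stress protein gene, averaged 2257 ± 257 TPM at 60 min and 1533 ± 199 TPM at 0 min and did not pass (0.56 ± 0.12, limma adjusted p = 0.0955). NQM1 and GRE1 had log2 changes of 1.01 ± 0.30 and 1.03 ± 0.31 but wide spread at 60 min, with 42.9, 77.6 and 89.9 TPM for NQM1 at 60 min and 28.9, 33.5 and 36.2 TPM at 0 min.

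YRO2 and GPP2 rose as well. YRO2 (YBR054W, II, 343101 to 344135, plus strand), a membrane protein gene related to HSP30, had 212, 214 and 216 TPM at 60 min and 116, 144 and 139 TPM at 0 min (log2 change 0.69 ± 0.11, limma adjusted p = 0.034). GPP2 (YER062C, V, 279930 to 280682, minus strand), a glycerol-3-phosphate phosphatase used in osmotic stress, had 274, 303 and 296 TPM at 60 min and 214, 204 and 202 TPM at 0 min (0.49 ± 0.07, limma adjusted p = 0.0196). GPP2 was the 1 gene called among 24 tested of glycolysis and fermentation, whose median was -0.01. Over all genes tested, 0.306% were called and the median was 0.04. TDH1, a glyceraldehyde-3-phosphate dehydrogenase gene of that list, had 379.6, 834 and 810.1 TPM at 60 min and 275, 371 and 342 TPM at 0 min (0.96 ± 0.42, limma adjusted p = 0.693), with 60 min replicate 1 far below the others of its group. Of 40 peroxide and thiol defence genes tested 0 passed by limma, while 2 were higher by edgeR, against 0.688% of all genes. TSA2, a stress-inducible peroxiredoxin gene, came closest by limma (1.10 ± 0.20, limma adjusted p = 0.0576, edgeR adjusted p = 0.00409). It had 159, 246 and 246 TPM at 60 min and 90.0, 111 and 96.8 TPM at 0 min.

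CTR1 (YPR124W, XVI, 786208 to 787428, plus strand), the high-affinity copper transporter, had 31.4, 29.1 and 31.3 TPM at 60 min and 20.2, 20.9 and 21.9 TPM at 0 min. Its libraries varied little, and it was 1.46-fold higher at 60 min (log2 change 0.52 ± 0.09, limma adjusted p = 0.0447). It was the 1 gene called among 11 tested copper and zinc genes, against 0.306% of all genes tested, and 0 of them fell. ZRT1, the high-affinity zinc transporter, had 116, 299 and 155 TPM at 60 min and 36.1, 143 and 48.6 TPM at 0 min, so that replicate 2 stood above the others at both times and the groups overlapped (1.46 ± 0.62, limma adjusted p = 0.658). Of 26 genes of the iron uptake regulon, 0 passed by limma and 1 was lower by edgeR, against 0.0344% of all genes. That gene was FET3, the multicopper ferroxidase, with 219.6, 264 and 276 TPM at 60 min and 376, 347 and 359.6 TPM at 0 min (-0.51 ± 0.14, limma adjusted p = 0.241, edgeR adjusted p = 0.0311).

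Several of the strongest rises belong to genes of little-known function. PBI1 (YPL272C, XVI, 26611 to 28164, minus strand) had 297, 356 and 399 TPM at 60 min and 152, 162 and 124 TPM at 0 min, 2.40-fold higher at 60 min (log2 change 1.26 ± 0.14, limma adjusted p = 0.00485). YMR317W (XIII, 907364 to 910786, plus strand) had 9.36, 15.7 and 13.1 TPM at 60 min and 3.08, 3.10 and 2.48 TPM at 0 min, 4.41-fold higher (1.80 ± 0.31, limma adjusted p = 0.0477). Neither gene overlapped between the times. YGR174W-A (VII, 846655 to 846741, plus strand) had 79.1, 66.8 and 70.2 TPM at 60 min and 6.15, 14.8 and 24.6 TPM at 0 min (2.35 ± 0.39, limma adjusted p = 0.0447, edgeR adjusted p = 0.073). This short reading frame rested on as few as 8 recovered reads in a 60 min library and 1 in a 0 min library. It lies beside the end of ERG1 on the opposite strand, and whether reads were counted by strand is not given in the sources used here, so its value is uncertain. SET4, a SET-domain gene just outside the threshold and named after its values were seen, had 13.9, 16.9 and 15.9 TPM at 60 min and 8.41, 9.91 and 7.75 TPM at 0 min (0.77 ± 0.14, limma adjusted p = 0.0543).

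Both genes that fell encode cytosolic chaperones of the Hsp70 and Hsp90 machinery. SSA2 (YLL024C, XII, 95566 to 97485, minus strand), a constitutive Hsp70, had 683, 647 and 682 TPM at 60 min and 861, 852 and 943 TPM at 0 min (log2 change -0.40 ± 0.06, limma adjusted p = 0.0413, edgeR adjusted p = 0.129). CPR6 (YLR216C, XII, 572096 to 573211, minus strand), a prolyl isomerase that binds Hsp90, had 148, 155 and 167 TPM at 60 min and 198, 196 and 199 TPM at 0 min (-0.34 ± 0.06, limma adjusted p = 0.0447, edgeR adjusted p = 0.0648). The groups did not overlap in either gene, and both calls were lost when any 1 of the 6 libraries was left out, in the fit of the 6 libraries alone, under median-of-ratios scaling and with edgeR. Each was called in 6 of 15 other fits, DESeq2 on recovered reads and the replicate block among them.

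Of 35 chaperone and heat shock genes tested, 0 rose and these 2 fell, against 0.272% and 0.034% of all genes. Without overlap, 0 were higher and 8 lower, against 7.8% and 3.6% of all genes. The list median of -0.06 was positive under 3 of 23 alternatives. Of the members, 14 were positive and 21 negative, against 3685 and 2199 of all 5884 genes tested. Hsp90 co-chaperone genes that did not pass lay on both sides of 0, with log2 changes of 0.10 for SBA1, 0.04 for CDC37 and -0.27 for AHA1. HSC82, the constitutive Hsp90 gene, averaged 947 ± 87.2 TPM at 60 min and 1179 ± 20.4 TPM at 0 min (-0.32 ± 0.08, limma adjusted p = 0.173). STI1, the co-chaperone that links Hsp70 to Hsp90, averaged 264 ± 3.17 TPM at 60 min and 308 ± 6.63 TPM at 0 min (-0.22 ± 0.06, limma adjusted p = 0.291). SSA1, a close paralog whose reads can be split wrongly with SSA2, had 383, 432 and 452 TPM at 60 min and 454, 511 and 560.0 TPM at 0 min (-0.26 ± 0.10, limma adjusted p = 0.571). The small heat shock gene HSP26 stood at the other end of the list with a log2 change of 0.33.

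**Figure D3:**
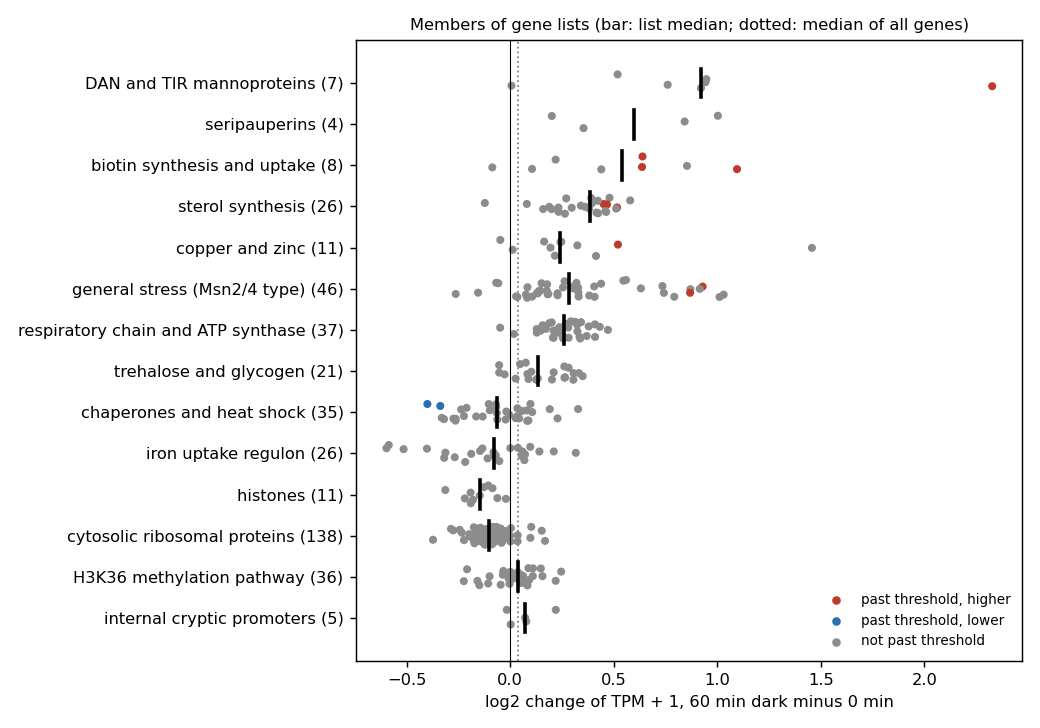
Log2 change of TPM + 1, 60 min dark minus 0 min, for each tested member of 14 gene lists, with the number tested in parentheses, a black bar at the list median and a dotted line at the median of all genes. The mannoprotein, biotin and sterol synthesis medians lie at 0.92, 0.54 and 0.39, those of histones and cytosolic ribosomal proteins below 0.

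Of 46 gene lists, 38 had no member called. Nuclear genes of the respiratory chain and ATP synthase had a median log2 change of 0.26 (0.22 to 0.29 over 23 alternatives), with 36 of 37 members positive, against 3685 of all 5884 genes, and 21 higher without overlap, against 7.8% of all genes, yet 0 passed by limma or edgeR. INH1, the inhibitor of ATP synthase, came closest with 619.6, 558 and 537 TPM at 60 min and 406, 434 and 449 TPM at 0 min (0.41 ± 0.08, limma adjusted p = 0.0741). All 11 histone genes were below 0, against 2199 of all 5884 genes, with a median of -0.15 (-0.19 to -0.11 over 23 alternatives), and 0 passed by limma or edgeR. The 138 cytosolic ribosomal protein genes had a median of -0.10 (-0.16 to -0.06), with 129 below 0 and 0 past the threshold of limma or edgeR.

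Genes tied to the mark itself were close to 0. Of 36 genes of the H3K36 methylation pathway, with the Rpd3S, Isw1b, Spt6, Paf1 and CTDK-I components and the JmjC demethylases, 0 were called by limma or edgeR and the log2 changes ran from -0.22 to 0.25. None of 5 genes known for internal promoters that fire when H3K36 methylation is lost passed. FLO8, an activator of filamentous growth genes, averaged 14.6 ± 0.450 TPM at 60 min and 14.8 ± 1.03 TPM at 0 min. STE11, a kinase of the pheromone pathway, averaged 16.8 ± 2.54 TPM at 60 min and 14.3 ± 2.82 TPM at 0 min. A value per gene sums reads over the whole gene and does not separate internal transcripts from full-length ones.

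Promoters of the 3 largest rises and of both falls are printed, since among the 18 genes called these had the largest log2 changes in each direction. Each runs from 250 bases before to 50 bases after the start codon on the gene's strand, read from the R64 genome of RefSeq. Capitals mark matches to the paired heat shock half-sites GAANNTTC, the sterol element TCGTATA, the Rox1 core ATTGTT and the box TATAAA on either strand.
DAN1 (chrX:709658-709957, minus strand): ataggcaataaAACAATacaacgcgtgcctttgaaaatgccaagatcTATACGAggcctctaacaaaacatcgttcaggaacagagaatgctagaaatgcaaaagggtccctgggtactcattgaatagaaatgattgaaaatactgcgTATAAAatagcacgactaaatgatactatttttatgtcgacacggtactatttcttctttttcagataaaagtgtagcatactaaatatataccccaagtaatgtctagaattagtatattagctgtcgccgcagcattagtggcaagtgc
YMR317W (chrXIII:907114-907413, plus strand): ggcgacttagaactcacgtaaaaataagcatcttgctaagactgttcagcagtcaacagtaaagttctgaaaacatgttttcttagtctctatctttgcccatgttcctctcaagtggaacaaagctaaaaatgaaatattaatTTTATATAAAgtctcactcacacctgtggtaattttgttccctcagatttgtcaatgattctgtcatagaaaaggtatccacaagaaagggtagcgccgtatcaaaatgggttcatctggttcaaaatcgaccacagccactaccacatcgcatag
YGR174W-A (chrVII:846405-846704, plus strand): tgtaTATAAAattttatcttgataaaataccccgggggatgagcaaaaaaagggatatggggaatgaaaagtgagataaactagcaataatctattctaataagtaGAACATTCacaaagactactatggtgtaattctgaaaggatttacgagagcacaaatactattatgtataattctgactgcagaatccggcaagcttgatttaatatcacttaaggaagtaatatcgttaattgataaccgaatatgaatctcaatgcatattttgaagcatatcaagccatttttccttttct
SSA2 (chrXII:97436-97735, minus strand): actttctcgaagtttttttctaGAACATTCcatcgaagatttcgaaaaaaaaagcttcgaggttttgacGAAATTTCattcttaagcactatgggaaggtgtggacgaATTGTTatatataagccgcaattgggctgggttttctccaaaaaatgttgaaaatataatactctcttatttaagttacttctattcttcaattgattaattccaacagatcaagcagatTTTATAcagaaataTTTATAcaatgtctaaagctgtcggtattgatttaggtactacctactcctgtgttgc
CPR6 (chrXII:573162-573461, minus strand): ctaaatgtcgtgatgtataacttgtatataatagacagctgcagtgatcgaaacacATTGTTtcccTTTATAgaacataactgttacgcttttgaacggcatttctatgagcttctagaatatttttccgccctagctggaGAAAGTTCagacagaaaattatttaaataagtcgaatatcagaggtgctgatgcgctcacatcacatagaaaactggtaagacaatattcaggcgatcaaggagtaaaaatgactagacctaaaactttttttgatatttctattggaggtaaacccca
The SSA2 window held 2 copies of GAANNTTC, first bases 228 and 181 before the start codon, and CPR6 held 1 copy, 109 bases before it. In the DAN1 window the sterol element began 203 bases before the start codon on the opposite strand and TATAAA 101 bases before it. The match to TATAAA in YMR317W overlaps a second one on the other strand.

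Over the 16 genes that rose, 12 promoters held TATAAA (75%), against 2724 of 6007 promoters of the same length (45.3%). The general stress element AGGGG was in 3 (18.8%), those of TKL2, DDR2 and PBI1, against 21.6% of all promoters. TCGTATA was in those of TKL2 and DAN1 (12.5%, against 4.13%) and GAANNTTC in those of YGR174W-A and BIO3 (12.5%, against 11.8%). The Rox1 core was in 7 (43.8%, against 35.3%). Among 26 sterol synthesis promoters, 3 held TCGTATA (11.5%) and 18 held TATAAA (69.2%). The chaperone list held GAANNTTC in 12 of 37 promoters (32.4%). In all, 16 motifs were searched on both strands, and a match describes letters only.

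The opposite switch, from darkness to light, gave a second 60 min change in the same strain (2 libraries at 60 min, 3 at 0 min), from a table of its own. A limma interaction asked whether the change at 60 min differed between the directions of the switch. It called 0 of 5900 genes (0%), while 315 (5.34%) had an unadjusted p under 0.05 and the smallest adjusted p was 0.0542. That value belonged to DAN1 and YHB1. DAN1 changed by 2.33 into darkness and 0.30 into light, a difference of 2.03 ± 0.34 (limma unadjusted p = 1.44e-05). YHB1 changed by 1.26 into darkness and 0.40 into light, a difference of 0.86 ± 0.15 (limma unadjusted p = 1.84e-05).

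With median-of-ratios scaling the same test called 12 genes, all with a positive difference, dark course minus light course. Of the 16 genes that rose in darkness, CTR1, ERG25 and YMR317W had the opposite sign after the switch to light (3 of 16, against 2069 of all 5884 genes). CTR1 changed by 0.52 into darkness and -0.27 into light (difference 0.79 ± 0.16, limma adjusted p = 0.13). CPR6 changed by -0.34 into darkness and 0.17 into light (difference -0.50 ± 0.10, limma adjusted p = 0.13). The sterol list had a median of 0.39 into darkness and -0.03 into light, and ERG25 changed by 0.45 and -0.07. DDR2 changed by 0.87 into darkness and 1.48 into light, TKL2 by 0.93 and 0.73, and YRO2 by 0.69 and 0.65. The general stress list had a median of 0.28 into darkness and 0.44 into light. For the respiratory chain and ATP synthase list the medians were 0.26 and 0.23, and for cytosolic ribosomal proteins -0.10 and -0.23. Histones had -0.15 into darkness and 0.02 into light, and all genes tested 0.04 and 0.08.

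Levels before and after each switch also differed between the tables, which were made separately. DAN1 stood at 19.4 ± 4.54 TPM at 60 min of darkness and 3.03 ± 0.686 TPM at 0 min in light, and at 37.8 ± 7.25 TPM (n = 2) after 60 min of light and 30.7 ± 7.31 TPM (n = 3) in dark-grown cells before it. YHB1 stood at 201 ± 16.4 TPM at 60 min of darkness and 83.9 ± 9.57 TPM at 0 min in light, and at 238 ± 10.7 TPM (n = 2) after 60 min of light and 181 ± 11.4 TPM (n = 3) in dark-grown cells before it. In both genes the mean after 60 min of darkness lay nearer to that of the dark-grown cells than to that of the light-grown cells. It was below the dark-grown mean in DAN1 and above it in YHB1. The mean after 60 min of light was above that of the dark-grown cells in both genes. Other genes that rose went both ways. PBI1 (351, 146 and 275 TPM at 60 min of darkness, in light-grown and in dark-grown cells) lay nearer to the dark-grown level. BIO2 (85.9, 54.8 and 43.9 TPM) and CTR1 (30.6, 21.0 and 16.7 TPM) lay nearer to the light-grown level. At 60 min of darkness PBI1, BIO2 and CTR1 were each above both the light-grown and the dark-grown level. Course and growth light cannot be told apart in these levels.

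**Figure D4:**
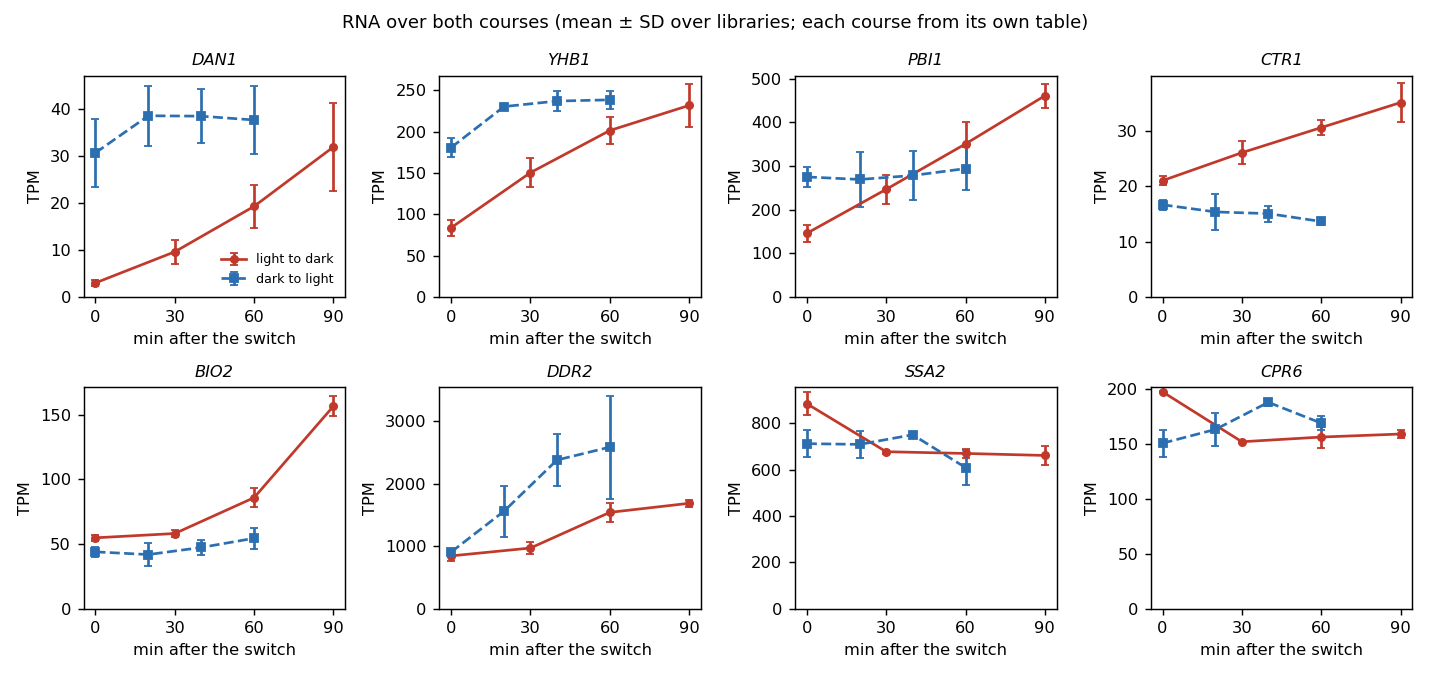
Mean TPM ± SD against minutes after the switch for 8 genes, in the light to dark course (circles, solid, n = 3 at each time) and the dark to light course (squares, dashed, n = 3, but 2 at 60 min), with each course from its own table. In the dark course the means of DAN1, YHB1, PBI1 and CTR1 lie above their 0 min means by 30 min, that of BIO2 is close to it, and those of SSA2 and CPR6 lie below it from 30 min on.

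Neighbouring times of the dark course share the 0 min libraries with this comparison, so their values are set side by side only. The log2 changes of DAN1 at 30, 60 and 90 min against 0 min were 1.39, 2.33 and 3.01, those of YHB1 0.83, 1.26 and 1.45, and those of PBI1 0.75, 1.26 and 1.66. Among the biotin genes the values were 0.08, 0.64 and 1.50 for BIO2 and 0.15, 1.10 and 2.62 for BIO3. DDR2 had 0.20, 0.87 and 1.00. The chaperone genes had like values at all 3 times, with -0.38, -0.40 and -0.42 for SSA2 and -0.38, -0.34 and -0.31 for CPR6.

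H3K36me3 was measured in the same course in other libraries, 3 at each time, as 1 deposited signal value per gene. At 60 min of darkness it was lower than at 0 min in all 5009 genes tested for RNA that have a value, with a median log2 ratio of -0.89 (a pseudocount of 0.00635 added to each mean). Of the 16 genes that rose in RNA, 13 have a value, and their median log2 ratio was -0.85, from -1.10 at ERG25 to -0.42 at DDR2. Their median level was 0.0389 at 60 min and 0.0757 at 0 min, against 0.0552 and 0.111 for all genes. DAN1 had 0.0118 ± 0.00135 at 60 min and 0.0219 ± 0.00321 at 0 min, and YHB1 0.0603 ± 0.0120 at 60 min and 0.105 ± 0.0244 at 0 min (SD, n = 3 each). SSA2, which fell in RNA, had 0.192 ± 0.0199 at 60 min and 0.468 ± 0.0443 at 0 min, a log2 ratio of -1.26. These values describe the genes and were not tested against RNA.

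**Figure D5:**
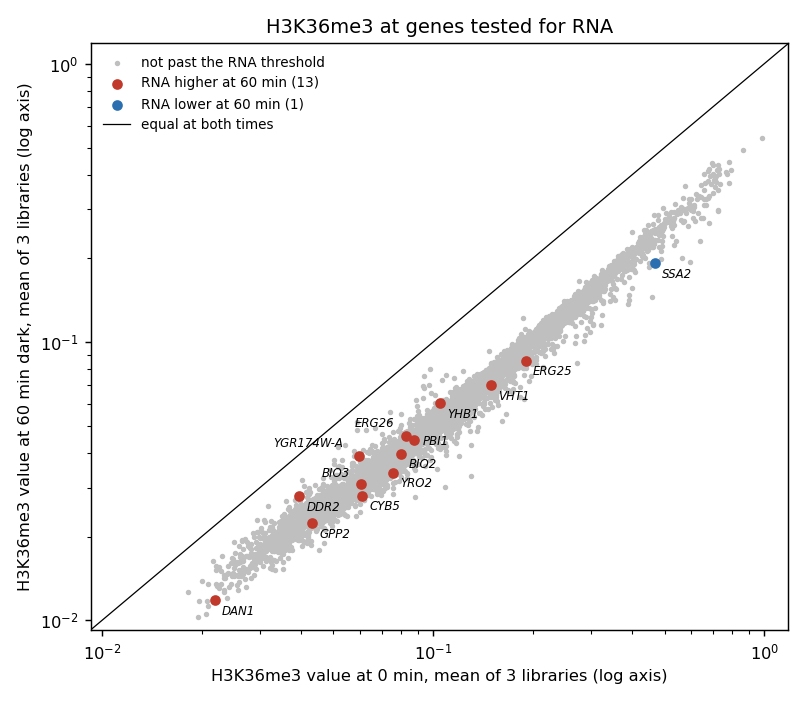
Mean H3K36me3 value of 3 libraries at 60 min of darkness against that at 0 min, both on log axes, for 5009 genes tested for RNA. All points lie below the line of equal values, and the 13 genes that rose in RNA (red) and SSA2, which fell (blue), lie within the band of the other genes.

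The 16 genes that rose were otherwise mixed. Their median length was 1089 bases, against 1164 for all genes tested, and their median level at 0 min was 69.3 TPM, against 25.1 TPM. PBI1, YMR317W and BIO2, 3 of the 16 (18.8%), lie within 30 kb of a chromosome end, against 252 of 5601 genes with a position (4.50%).

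The authors' deposited table for the same times lists 117 genes, each with an adjusted p under 0.05 there. Its log2 values have the sign opposite to the TPM difference in 117 of 117 genes, so they run 0 min over 60 min as deposited, and by TPM 89 of these genes were higher at 60 min (1.51% of genes tested) and 28 lower (0.476%). It holds 17 of the 18 genes called here (94.4%), and these make up 14.5% of its genes. The gene called here that it does not list is YGR174W-A. For DAN1 the authors' deposited table gives a log2 value of -1.04 with an adjusted p of 1.67e-17, a smaller size than the 2.33 found with limma. Of the sterol synthesis list 12 of 26 members are in it as higher at 60 min in the authors' deposited table, and 0 as lower.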

How the data were processed

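RNA of LANS-Set2 cells was measured in 12 light to dark libraries, with 11 dark to light libraries set beside them. The deposited TPM values were made by the authors with Salmon 0.8.1, per the submitters' processing notes, on sacCer3. The deposited H3K36me3 signal is 1 value per gene, with Schizosaccharomyces pombe chromatin added as a spike-in, per the labels' protocols. The authors' comparison table holds log2 values and p-values, with DESeq2 1.14.1 named in the submitters' processing notes. Estimated counts and effective lengths in 6 deposited files of other libraries were used to recover reads from TPM, and 100% of the values checked came out whole within 0.05.

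Changes were tested with limma 3.58.1 (R 4.3.3, trend) on log2(TPM + 1), with time as factor over the 12 libraries, keeping genes that averaged 1 TPM or more, and Benjamini-Hochberg adjusted p-values under 0.05 were called. Fold changes on that scale understate low genes, while folds given as such are ratios of mean TPM. edgeR 4.0.16 and DESeq2 1.42.0 on recovered reads were alternatives. The fits were also run on simulated counts with the same dispersion for all genes and no replicate effect, which cannot decide between the fits. Of 6692 genes, 6008 matched R64 and 684 did not. The 0 min and 60 min libraries share replicate numbers, which the labels do not tie to a culture or day. All members and lists were chosen with earlier results of these data known. Named genes are SET2, RPH1, the 12 largest called rises and falls without overlap and a mean TPM of at least 5, and the 2 smallest p-values of each list with a call. Other genes were named after their values were seen.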

Additional observations from a re-analysis of the deposited data

How the results depend on the processing

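Against 18 genes called, the count was 2 with the 6 libraries alone, 36 with median-of-ratios scaling, 42 with edgeR and 118 with DESeq2. It ran from 5 to 19 when 1 of the 6 libraries was left out. Other pseudocounts and filters on low values gave 15 to 20. Over the 18 genes and 23 alternatives, 293 of 414 values kept their direction and call, 121 kept their direction but not the call, and 0 reversed. DAN1 passed in all 23 and YHB1 in 22. The cause was not tested. Deviations of libraries with the same replicate number correlated at 0.362, 0.0900 and 0.328, and those with different numbers at -0.344 to 0.135. The 60 min replicates 1 and 3 correlated best with the 0 min library of the same number. However, 60 min replicate 2 correlated best with 0 min replicate 3 (0.135, against 0.0900 with 0 min replicate 2). The numbers were therefore not taken as pairs, but so small a gap cannot decide whether the libraries are paired. With the replicate block the count was 155. Among alternatives chosen after seeing the data, it was 1 with the replicate block on the 6 libraries alone, 256 with the replicate block in edgeR, and with the replicate block it was 71, 29 and 36 without 60 min replicates 1, 2 and 3 and 167, 68 and 64 without 0 min replicates 1, 2 and 3. For the difference between the switches, against 0 genes called, a pseudocount of 0.1 gave 1, median-of-ratios scaling 12, the replicate block 39, and leaving out 1 library 0 to 2. The shallowest library, 60 min replicate 1, held 10551857 reads, and genes with few reads, such as YGR174W-A, are the least certain.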
